A study of Drosophila melanogaster with 10 samples.

Results

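Doc, F-element and BS are LINEs of the jockey clade, and the piRNAs that match them were followed along their consensus sequences in ovarian somatic cells (OSCs) of Drosophila melanogaster. The members were taken by name: every position of Doc, F-element and BS, on both strands and in all 10 libraries, which is 3 of 122 elements. The Doc consensus is 4725 nt long, that of F-element 4708 nt and that of BS 5142 nt. Small RNAs bound to Argonaute proteins had been purified and sequenced in 4 groups. Wild-type OSCs were transfected with an siRNA against armitage (siArmi, 3 libraries) or against luciferase (siLuc, 3 libraries) at 0 h and again at 48 h, and were harvested at 96 h. In a second experiment, a clonal OSC line with UAS sites integrated upstream of the flamenco promoter, and otherwise wild type, was transfected with Gal4 fused to the intrinsically disordered region of Panoramix (Gal4-Panx-IDR, 1 library from day 6 and 1 from day 7) or with Gal4 alone (Gal4, 2 libraries whose harvest day is not given apart), and the transfection was repeated after 48 h. FACS enrichment for low GFP, from a cassette silenced along with flamenco, was applied to the Gal4-Panx-IDR cells alone, so sorting and silencing cannot be told apart.

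LINEs are non-LTR retrotransposons that are copied by target-primed reverse transcription, which starts at the 3′ end of their RNA, and many genomic copies therefore lack their 5′ part. In the somatic cells of the fly ovary, piRNAs are loaded onto Piwi alone and guide it to nascent transposon transcripts. A piRNA antisense to an element can pair with its transcript, whereas a sense piRNA has the sequence of the transcript itself. Most antisense piRNAs of OSCs come from flamenco, a long locus on the X chromosome that is transcribed from a single promoter and holds remnants of many transposons. Armitage is an RNA helicase that delivers piRNA precursors to the processing machinery at mitochondria, and Panoramix is the adaptor through which Piwi induces heterochromatin, so that its tethering represses the promoter next to it.

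All values are coverage per nt, scaled by the authors to 1000000 miRNA reads of the same library. The values implied 586560 to 875165 miRNA reads in the siArmi libraries, 1297626 to 1799370 in siLuc, 117444 and 151205 in Gal4-Panx-IDR, and 87066 and 110492 in Gal4. Mean coverage over all elements and both strands was 30.9 to 34.7 in siArmi, against 533 to 745 in siLuc, where replicate 3 was the lowest, and 613 and 685 in Gal4-Panx-IDR, against 956 and 1118 in Gal4. Every change thus depends on the miRNA content of the libraries, and in bulk samples fewer cells with a piRNA and fewer piRNAs per cell cannot be told apart. The tables hold transposons only, so neither armitage itself nor markers of OSCs were analysed here. Labels do not say whether libraries came from separate cultures. The study describes its browser tracks, small RNA tracks among them, as means of biological replicates but does not say so of these libraries one by one, and the p-values measure the spread between these libraries, whatever its source.

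**Figure D1:**
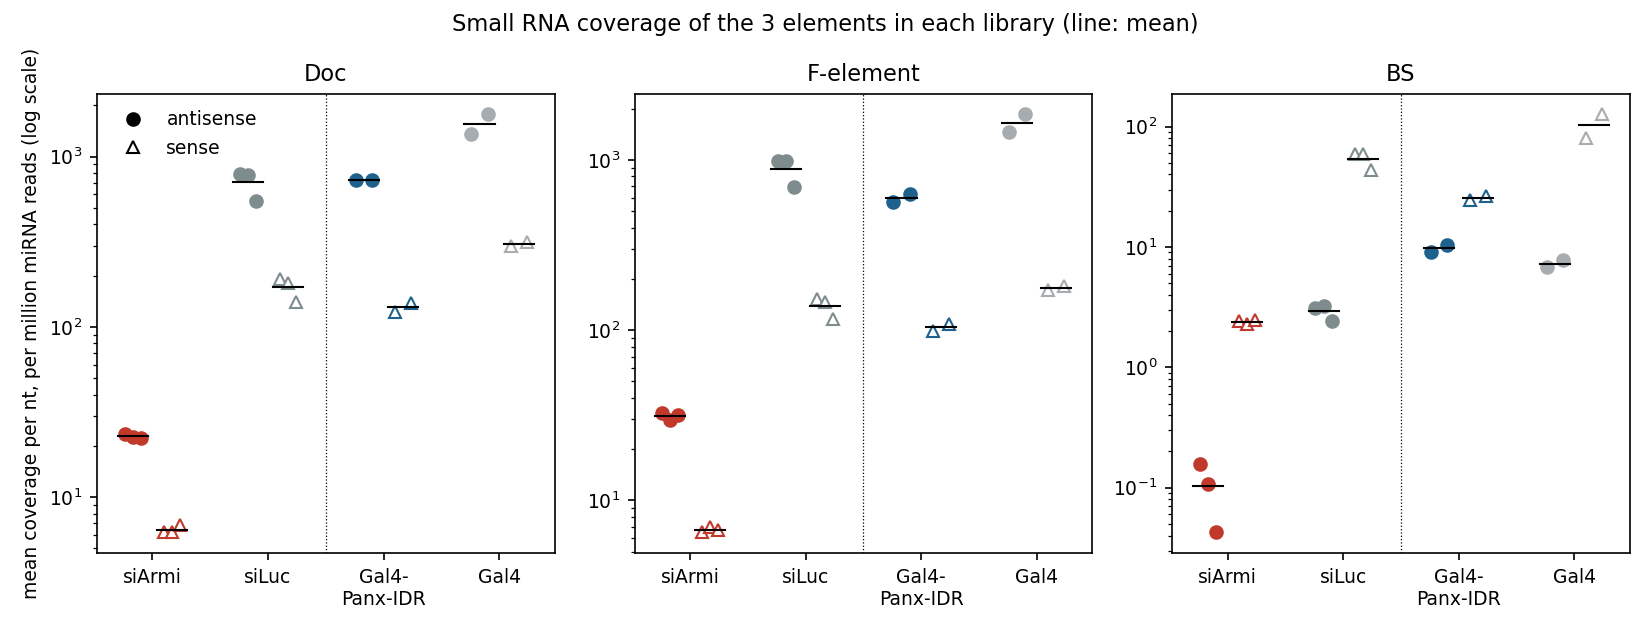
Mean coverage per nt and per 1000000 miRNA reads of Doc, F-element and BS (log axis) in each library; filled circles are antisense and open triangles are sense coverage, and lines are group means. Every siArmi library lies below every siLuc library, and the Gal4-Panx-IDR libraries lie below the Gal4 libraries for all members and strands but BS antisense. This order was not counted over other elements.

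In control cells (siLuc) Doc carried piRNAs over its whole length and on both strands. Antisense coverage averaged 707.5 ± 137 (SD, n = 3), position 22 of the 122 elements, and sense coverage averaged 170.7 ± 26.5, position 8. The strands were at their highest at opposite ends of the element. Antisense coverage rose most steeply at nt 3055, and its mean was 1552 downstream of that position and 245.3 upstream of it. Thus 77.6% of the antisense signal lay in the last 35.4% of the consensus, most of it in a stretch of 1415 nt between nt 3070 and nt 4484 with a mean of 1664. Sense coverage was highest near the 5′ end instead, between nt 29 and nt 723, with a mean of 769.3 and a peak of 1923 at nt 54. At 99.7% of its positions Doc had a coverage of at least 10 on both strands. The stretches, the steps and this limit were read from the siLuc libraries, so the values of these libraries in them are a description.

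F-element had more antisense coverage than Doc in each of the 3 siLuc libraries, with a mean of 890.0 ± 167 (SD, n = 3), position 20 of the 122 elements, and its sense coverage was 138.0 ± 19.6, position 10. Here the 5′ part was almost only antisense. Sense coverage averaged 3.76 before nt 1511 and 201.4 from there on, and 99.1% of the sense signal lay after that position. The highest antisense stretch lay between nt 468 and nt 1406, with a mean of 1850. It ended before the longest sense stretch, which ran between nt 1511 and nt 2141 with a mean of 773.7. Antisense coverage did not stop at nt 1511: it averaged 1468 before nt 1511 and 616.9 after it. Within the longest sense stretch antisense coverage averaged 785.1. Shorter sense stretches lay between nt 3719 and nt 3798 and between nt 3893 and nt 3971. A coverage of at least 10 on both strands was found at 65.4% of the positions.

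BS was the reverse of the other two. Its sense coverage averaged 54.0 ± 8.77 (SD, n = 3) in siLuc cells, position 16 of the 122 elements, and its antisense coverage 2.93 ± 0.452, position 90. Almost all of the sense signal came from the 3′ end. It averaged 752.3 from nt 4776 on and 0.325 before, so that 99.4% of it lay in the last 7.14% of the consensus, in a single stretch of 342 nt between nt 4778 and nt 5119. Antisense coverage of BS was thin over the whole consensus, and 0.836% of the positions had none in any siLuc library. Antisense stretches at or above its mean lay between nt 233 and nt 1635, with 1 more at the 3′ end. That last stretch, between nt 5052 and nt 5127, had a mean of 23.7. Together these stretches held 47.7% of the antisense signal. Both strands reached 10 at only 0.603% of the positions.

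**Figure D2:**
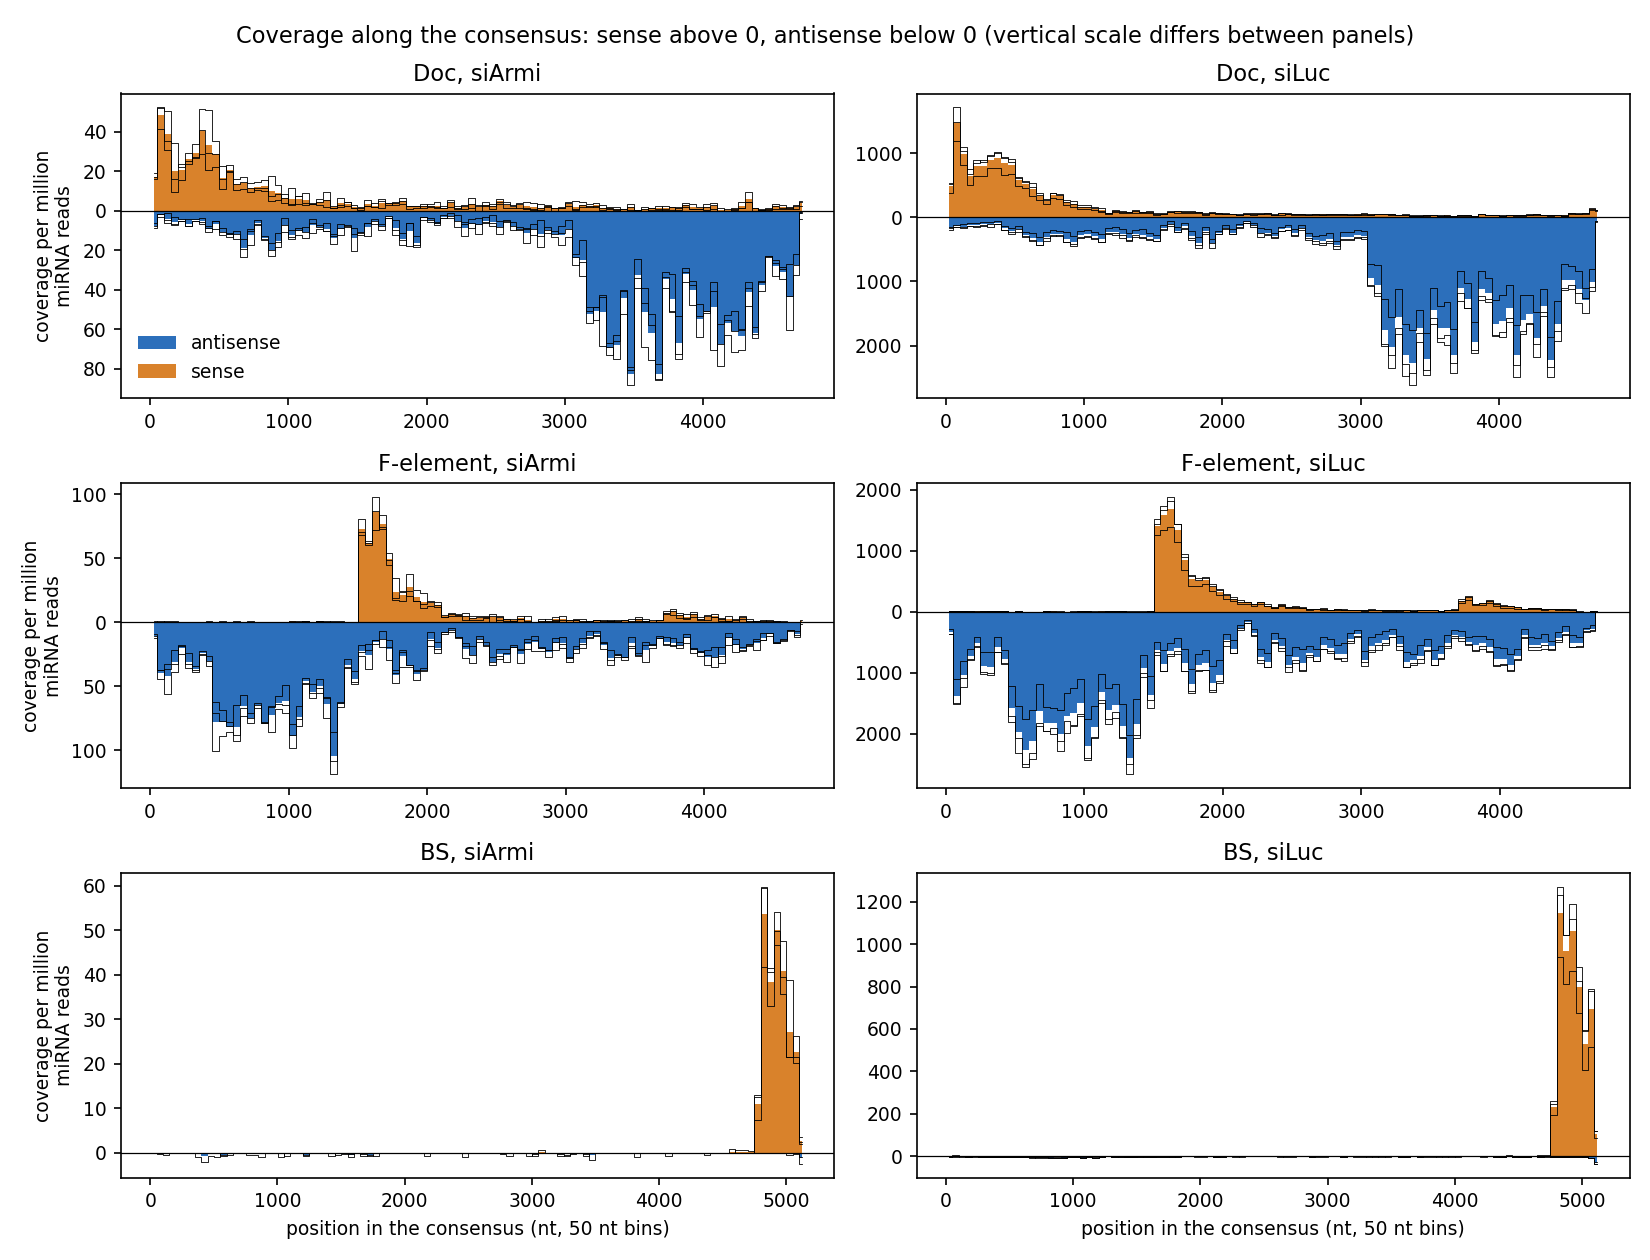
Coverage per nt and per 1000000 miRNA reads along the consensus of Doc, F-element and BS, in bins of 50 nt, for siArmi (left) and siLuc (right); filled areas are the mean of 3 libraries, thin lines the single libraries, sense is drawn above 0 and antisense below, and vertical scales differ between panels. In siLuc, antisense coverage of Doc is highest after nt 3055, sense coverage of F-element begins at nt 1511, and sense coverage of BS is confined to the stretch after nt 4776 but for 0.325 per nt before it.

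The balance of the strands was tested with limma as a log2 ratio, antisense over sense, where either strand reached a mean of 10. The ratio was 2.04 for Doc (SE 0.0548, Benjamini-Hochberg adjusted p = 6.76e-80) and 2.67 for F-element (SE 0.0605, adjusted p = 1.29e-90), both antisense, as were 67.1% of the 79 elements tested. For BS it was -3.80 (SE 0.0652, adjusted p = 2.38e-108), on the side of the 31.6% that had more sense than antisense coverage. The median of the 79 elements was 2.85. Taken as the median over positions in place of the mean, the ratio of BS turned round to 1.60, since only its 3′ end carries the sense signal. In most fits limma estimated infinite prior degrees of freedom, so that the p-values rest on the spread shared between elements and not on that of the member alone.

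After Armitage depletion, piRNAs of all 3 members fell on both strands. Antisense coverage of Doc was 23.6, 22.4 and 22.3 in the siArmi libraries, against 791.4, 781.2 and 549.9 in the siLuc libraries. For F-element it was 32.5, 29.5 and 31.7 in siArmi, against 987.7, 984.8 and 697.4 in siLuc. The groups lay far apart, and the siArmi mean was 3.22% of the siLuc mean for Doc and 3.51% for F-element. Sense coverage of Doc was 6.26, 6.21 and 6.86 in siArmi and 189.8, 181.8 and 140.4 in siLuc. Sense coverage of F-element was 6.50, 7.00 and 6.71 in siArmi and 152.1, 146.3 and 115.7 in siLuc. BS sense coverage was 2.44, 2.31 and 2.46 in siArmi and 59.2, 58.9 and 43.9 in siLuc. The siArmi means of the sense strand were 3.78% (Doc), 4.88% (F-element) and 4.45% (BS) of the siLuc means, with siLuc replicate 3 the lowest of the controls each time.

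On the log2(coverage + 1) scale the antisense change was -4.88 for Doc (SE 0.196, limma with Benjamini-Hochberg adjustment, adjusted p = 4.04e-62) and -4.77 for F-element (SE 0.197, adjusted p = 1.34e-60). All 50 elements tested, 100% of them, fell, with a median of -4.30, and Doc and F-element were at places 4 and 6 from the lowest. The sense change was -4.52 for Doc (SE 0.175, adjusted p = 3.82e-49), -4.16 for F-element (SE 0.175, adjusted p = 5.47e-46) and -4.00 for BS (SE 0.176, adjusted p = 2.98e-44). Again all 29 elements tested fell, 100%, with a median of -4.13, so the calls of the members do not set them apart. The mean that let an element into the test was taken over both groups. In siArmi the sense means of Doc (6.45), F-element (6.73) and BS (2.40) were below 10, so these members entered the sense test through siLuc. The shares of elements that fell are thus a description of elements chosen in this way. Scaled to the total transposon signal instead of miRNAs, which removes the loss that all elements share, 22 elements were lower and 9 higher of 49 on the antisense strand, and 11 lower and 8 higher of 34 on the sense strand. Doc antisense then fell by 0.58 (adjusted p = 1.40e-05), F-element antisense by 0.45 (adjusted p = 5.77e-05) and Doc sense by 0.35 (adjusted p = 0.00511), while F-element sense (0.01, adjusted p = 0.882) and BS sense (-0.11, adjusted p = 0.143) did not pass the test. Median-ratio scaling gave 18 lower and 9 higher of 41 antisense and 11 lower and 1 higher of 18 sense.

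The antisense coverage of BS was too low for the test across elements. It was 0.157, 0.108 and 0.0426 in siArmi, against 3.12, 3.25 and 2.41 in siLuc, and the siArmi values rest on at least 13, 13 and 4 reads. The siArmi mean was 3.51% of the siLuc mean. With no filter on low values the change was -1.83 (limma, adjusted p = 5.06e-44), a size that the pseudocount of 1 holds down. The pseudocount also flattens the spread of such low values, so this p-value says little about the spread of BS itself. BS sense coverage, whose median over positions is near 0, could not be called from that median (a change of 0).

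The loss reached every part that could be tested. Each consensus was divided into 10 equal parts, numbered 1 to 10 from the 5′ end, and every part with a mean of at least 10 was tested. That mean was taken over both groups, so a part could enter through siLuc alone. F-element sense part 7, for example, had 1.05, 1.56 and 2.42 in siArmi, against 29.3, 27.8 and 21.6 in siLuc. The shares of parts that fell are thus a description of parts chosen in this way. All 10 antisense parts of Doc fell, by -4.32 in part 1 to -5.08 in part 10 at the 3′ end, and all 10 of F-element by -4.63 to -4.97, as did 100% of the 463 parts of all elements. On the sense strand all 10 parts of Doc fell, by -3.76 to -4.78, as did the 7 tested of F-element, by -3.37 to -4.36, and the only one tested of BS, part 10 at -4.42. Over all elements 99.6% of 230 sense parts fell and 0.435% rose. Scaled to total transposon signal, the antisense parts were split into 150 lower and 80 higher and the sense parts into 70 lower and 67 higher.

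Set against the other parts of the same element, a measure in which the scaling cancels apart from the pseudocount, the 5′ parts of Doc kept a little more than its 3′ end. Doc part 1 had antisense coverages of 5.15, 5.52 and 5.86 in siArmi, against 154.3, 139.9 and 99.7 in siLuc, and part 10 of 39.4, 38.0 and 35.5 in siArmi, against 1423, 1487 and 1053 in siLuc. Relative to the other 9 parts, part 1 changed by 0.57 (SE 0.0771, limma, adjusted p = 0.00333) and part 2 by 0.53 (SE 0.0424, adjusted p = 0.000605), and parts 3 and 4 were also called higher, by 0.22 and 0.33. Part 10 changed by -0.25 (SE 0.0452, adjusted p = 0.00888). Thus 4 parts of Doc were called higher, against 16.9% of the 415 parts of all elements, and 1 lower, against 21.2%. Part 1 and part 4 (9.47, 8.80 and 9.30 in siArmi) were below 10 in every siArmi library, so they entered through siLuc. At such low values the pseudocount of 1 raises the relative change. In coverage without a pseudocount, the siArmi mean was 0.0360 times the siLuc mean upstream of nt 3055 and 0.0311 times downstream. In F-element part 2, its part with the most antisense coverage, was higher by 0.19 (adjusted p = 0.0130) and part 6 lower by -0.17 (adjusted p = 0.0464), but part 2 turned to -0.05 with a pseudocount of 10. The number of parts called over all elements was 158 and lay between 72 (without siLuc replicate 1) and 226 (without siArmi replicate 1).

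The share of antisense reads fell slightly in Doc and F-element. Antisense reads made up 79.0%, 78.3% and 76.5% of the coverage of Doc in siArmi, against 80.7%, 81.1% and 79.7% in siLuc. For F-element the share was 83.4%, 80.8% and 82.5% in siArmi, against 86.7%, 87.1% and 85.8% in siLuc. Both shares were lower in every siArmi library, with an exact two-sided permutation p of 0.1, the smallest that 3 against 3 libraries allow. This separation was not counted over other elements, so it does not set the members apart. As a log2 ratio, the balance changed by -0.36 for Doc (SE 0.0813, limma, adjusted p = 0.000852) and by -0.61 for F-element (SE 0.0865, adjusted p = 1.34e-05), where 62.9% of the 62 elements tested were called lower. The median of these elements was -1.37 but moved with the pseudocount, to -0.50 with 0.1 and -1.98 with 10, and that of the members moved likewise, to -0.24 and -0.99 for Doc and -0.48 and -1.29 for F-element. Over all elements together the antisense share was 91.9% to 93.0% in siArmi and 91.4% to 91.6% in siLuc, so the members cannot be ranked against other elements by this change. BS was called among the 32.3% that were higher, by 2.18 (SE 0.0840, adjusted p = 1.16e-11), but this value is set by the pseudocount: with 0.1 in place of 1 it was 0.49 and no longer called, and the antisense share itself was 4.08% ± 2.20 in siArmi and 5.15% ± 0.118 in siLuc (SD, n = 3 each, exact permutation p = 0.7).

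When flamenco was silenced, Doc and F-element lost piRNAs on both strands and BS lost sense piRNAs. Doc antisense coverage was 730.6 and 728.7 in the Gal4-Panx-IDR libraries of day 6 and day 7, against 1359 and 1769 in the Gal4 libraries. F-element antisense coverage was 563.3 and 628.6 in Gal4-Panx-IDR, against 1460 and 1852 in Gal4. The groups did not overlap, and the Gal4-Panx-IDR mean was 46.6% of the Gal4 mean for Doc and 36.0% for F-element. Overlap was read for the members alone and was not counted over all elements. Sense coverage of Doc was 122.6 and 137.6 in Gal4-Panx-IDR, against 297.9 and 315.2 in Gal4. F-element sense coverage was 98.4 and 109.4 in Gal4-Panx-IDR, against 171.9 and 182.1 in Gal4. BS sense coverage was 24.4 and 26.5 in Gal4-Panx-IDR, against 79.8 and 126.2 in Gal4, where the controls differed most. BS sense coverage thus fell to 24.7% of the Gal4 mean, Doc sense to 42.4% and F-element sense to 58.7%.

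By limma the antisense change was -1.09 for Doc (SE 0.237, adjusted p = 1.99e-05) and -1.46 for F-element (SE 0.237, adjusted p = 1.51e-08). Both were called lower, as were 53.4% of the 73 elements tested, while 8.22% rose, and the median was -0.57. Their places from the lowest were 32 for Doc and 22 for F-element. On the sense strand BS changed by -1.94 (SE 0.197, adjusted p = 9.32e-16), Doc by -1.23 (SE 0.212, adjusted p = 2.09e-07) and F-element by -0.76 (SE 0.220, adjusted p = 0.00166). All 3 were called lower, as against 35.2% of the 54 elements tested, with 25.9% called higher and a median of -0.25. BS was the lowest of the 54, Doc at place 6 and F-element at place 11. Scaled to total transposon signal, 33 elements were lower and 28 higher of 73 antisense and 7 lower and 28 higher of 57 sense. The changes were then -0.41 for Doc antisense (adjusted p = 0.00382), -0.79 for F-element antisense (adjusted p = 1.02e-07), -0.56 for Doc sense (adjusted p = 0.0258) and -1.28 for BS sense (adjusted p = 0.000459), whereas F-element sense, at -0.10 (adjusted p = 0.654), was no longer called. Taken as the median over positions, Doc antisense (-0.25), F-element sense (-0.23) and BS sense (0) were not called. The F-element sense call was also lost without the Gal4-Panx-IDR library of day 6 (-0.69, adjusted p = 0.082).

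**Figure D3:**
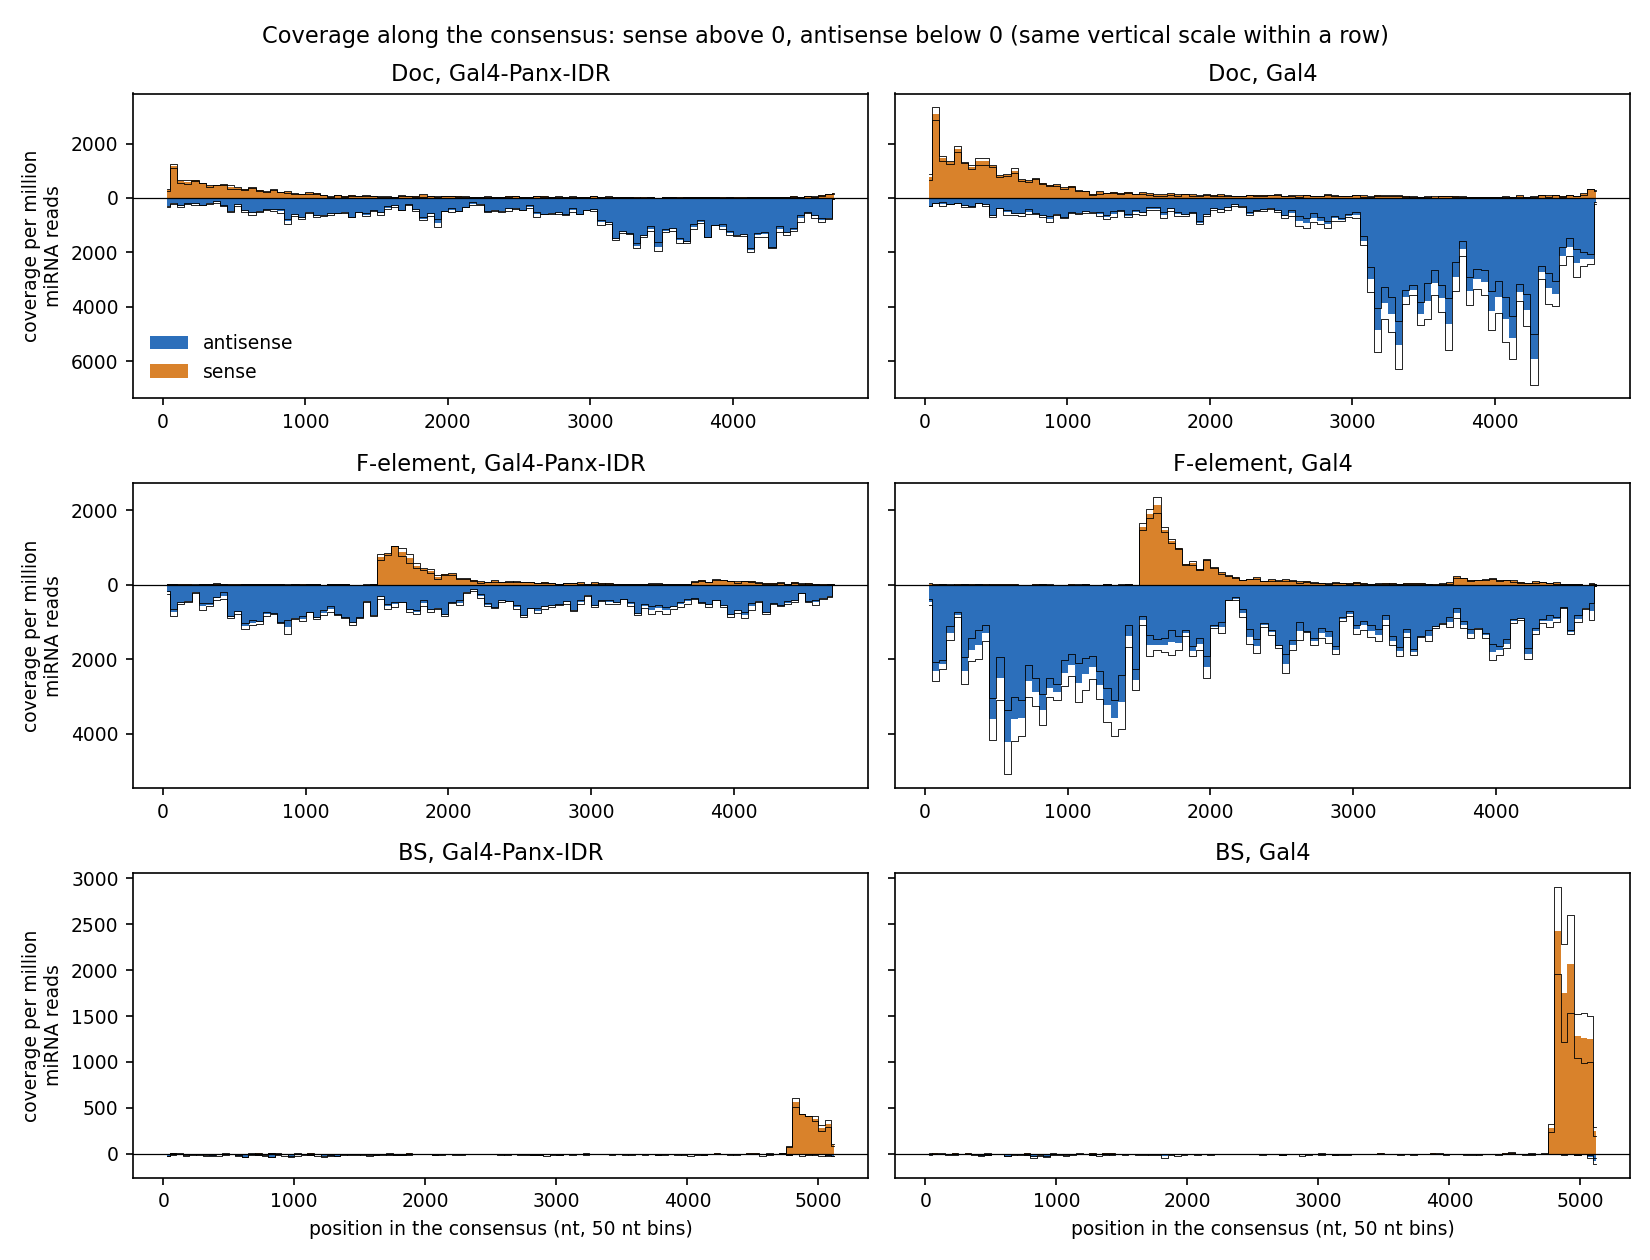
Coverage per nt and per 1000000 miRNA reads along Doc, F-element and BS, in bins of 50 nt, for Gal4-Panx-IDR (left) and Gal4 (right) on the same vertical scale; filled areas are the mean of 2 libraries, thin lines the single libraries, sense is drawn above 0 and antisense below. At this miRNA scaling, Doc antisense coverage is alike in both panels upstream of nt 3055 (466.1 in Gal4-Panx-IDR, 536.2 in Gal4) and differs downstream of it (1211 in Gal4-Panx-IDR, 3444 in Gal4).

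Doc lost antisense piRNAs in its 3′ part. Part 3 had 602.3 and 613.6 in Gal4-Panx-IDR, against 545.0 and 626.1 in Gal4, and these values overlapped. Part 10, at the 3′ end, had 925.1 and 958.3 in Gal4-Panx-IDR, against 2364 and 3176 in Gal4. Parts 1 to 6 changed by -0.45 to 0.06, none of them called, with adjusted p between 0.0868 and 0.850 by limma and 0 at an unadjusted p under 0.05. The interval of part 3, as an example, ran between -0.39 and 0.51, so a change within it was not detectable with these libraries. Parts 7 to 10 fell, by -1.36, -1.43, -1.49 and -1.54 (adjusted p of 7.94e-09 to 6.58e-11). Over all elements 49.1% of 652 antisense parts fell and 7.06% rose. Scaled to total transposon signal the split over all elements was 248 lower and 190 higher. That parts 1 to 6 of Doc lay near 0 holds under miRNA scaling. The total transposon signal was 613 and 685 in Gal4-Panx-IDR, against 956 and 1118 in Gal4. Scaling to it therefore moves the change of every part upward.

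Part 7, the first of the called parts, runs between nt 2836 and nt 3308 and holds the position where the antisense coverage of Doc rises. Part 6 was at -0.45 with an interval of -0.90 to 0.00, so the parts do not place an exact boundary. Upstream of nt 3055 the Gal4-Panx-IDR mean was 0.869 times the Gal4 mean, and downstream it was 0.352 times. In the stretch between nt 3070 and nt 4484 coverage was 1316 ± 34.7 in Gal4-Panx-IDR and 3726 ± 763 in Gal4 (SD, n = 2 each). Under Armitage depletion the same sides had siArmi means of 0.0360 times (upstream) and 0.0311 times (downstream) the siLuc means. The position was read from the siLuc libraries after their values had been seen, and the tethering libraries did not enter its choice.

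Relative to the other parts of Doc, parts 2, 3, 4 and 6 were called higher, by 0.97 (adjusted p = 0.0364), 1.21 (adjusted p = 0.0280), 0.95 (adjusted p = 0.0427) and 0.68 (adjusted p = 0.0427) in limma. Parts 8, 9 and 10 were called lower, by -0.43 (adjusted p = 0.0360), -0.50 (adjusted p = 0.0443) and -0.53 (adjusted p = 0.0346). Over all elements 3.10% of 612 parts were called higher and 2.61% lower in this comparison. With any 1 of the 4 tethering libraries left out, no part of any element was called by limma, and between 118 and 143 parts had an unadjusted p under 0.05. The size of the Doc values moved little, to between 1.12 and 1.31 for part 3 and between -0.57 and -0.50 for part 10.

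F-element fell over its whole length, most at the 5′ end. Part 1 had antisense coverages of 387.5 and 456.7 in Gal4-Panx-IDR, against 1326 and 1783 in Gal4, and part 10 of 403.9 and 446.0 in Gal4-Panx-IDR, against 850.6 and 1011 in Gal4. The groups were separate at both ends, but such separation was not counted over other elements. All 10 parts were called lower by limma, against 49.1% of the 652 antisense parts of all elements. The changes of F-element lay between -1.87 in part 1 (SE 0.229, limma, adjusted p = 6.89e-15) and -1.13 in part 10 (SE 0.229, adjusted p = 2.69e-06). Relative to the other parts, the change was -0.44 in part 1 and 0.36 in part 10, but 0 of the 10 parts were called by limma, with 6 at an unadjusted p under 0.05 and a lowest adjusted p of 0.0702.

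**Figure D4:**
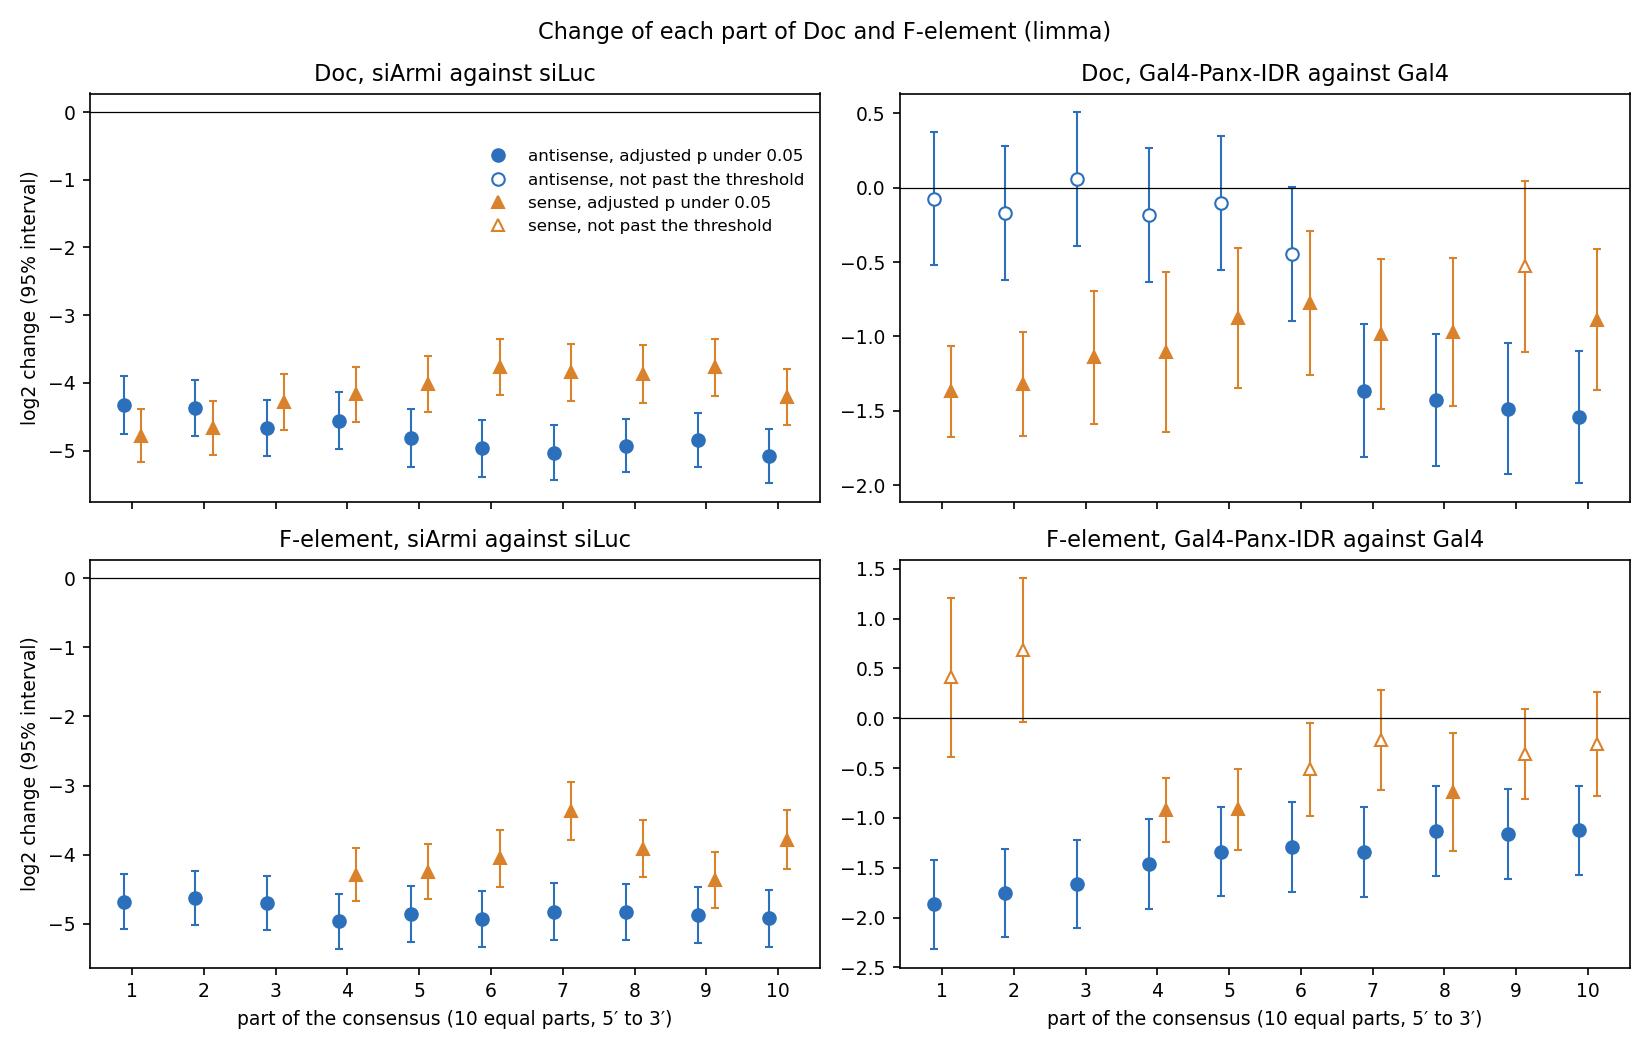
log2 change of each of 10 equal parts of Doc and F-element, numbered from the 5′ end, with 95% intervals by limma; siArmi against siLuc on the left and Gal4-Panx-IDR against Gal4 on the right. Filled symbols passed an adjusted p of 0.05. Doc antisense parts 1 to 6 are open circles near 0 on the right, and parts 7 to 10 lie between -1.54 and -1.36. The vertical axes differ between the panels.

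On the sense strand 9 of the 10 parts of Doc fell after flamenco silencing, by -1.37 in part 1, where the sense coverage was highest, to -0.77 in part 6, and part 9 had -0.53 (limma, adjusted p = 0.122). Parts 1 to 6 of Doc were thus all called lower in sense coverage and none was called in antisense coverage, a difference between strands that was not tested part by part. In F-element 3 of the 9 sense parts tested fell, parts 4 and 5 by -0.92 each and part 8 by -0.74. Part 4, which holds the start of the longest sense stretch, had 526.7 and 621.3 in Gal4-Panx-IDR, against 1047 and 1117 in Gal4. Of all 423 sense parts tested, 22.5% fell and 21.0% rose, and scaled to total transposon signal 39 were lower and 193 higher.

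BS lost sense piRNAs at its 3′ end. Part 10, which holds nearly all of its sense signal, had 237.4 and 260.3 in Gal4-Panx-IDR, against 791.6 and 1257 in Gal4, a log2 change of -2.00 (SE 0.212, limma, adjusted p = 2.15e-05). The sparse antisense coverage of BS was not called. BS antisense coverage was 9.03 and 10.4 in Gal4-Panx-IDR, against 6.78 and 7.74 in Gal4, on at least 200, 179, 86 and 125 reads. Both Gal4-Panx-IDR values were the higher, at 134% of the Gal4 mean. With no filter on low values the change was 0.38 (95% interval -0.15 to 0.90, limma, adjusted p = 0.258), which did not pass the test. Of the 3 antisense parts of BS that could be tested, 0 were called by limma and 0 had an unadjusted p under 0.05.

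Strand shares moved in different directions. Antisense reads made up 27.0% and 28.2% of the coverage of BS in Gal4-Panx-IDR, against 7.83% and 5.78% in Gal4. For F-element the share was 85.1% and 85.2% in Gal4-Panx-IDR, against 89.5% and 91.0% in Gal4. The shares of Doc overlapped, with 85.6% and 84.1% in Gal4-Panx-IDR, against 82.0% and 84.9% in Gal4. An exact two-sided permutation test gave p = 0.33 for BS and for F-element, the smallest that 2 against 2 libraries allow, and p = 0.667 for Doc. Separation of these shares was not counted over other elements. As a log2 ratio the balance changed by 2.32 for BS (SE 0.270, limma, adjusted p = 3.50e-14), where 16.7% of 84 elements rose. It changed by -0.70 for F-element (SE 0.263, adjusted p = 0.0147), where 42.9% fell, and this call was lost without Gal4 replicate 2 (-0.57, adjusted p = 0.127). For Doc it was 0.15 (95% interval -0.37 to 0.66, adjusted p = 0.633).

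The 3′ end was also compared as its share of the antisense coverage of each member. Part 10 of Doc held 16.5% ± 0.536 in siArmi, against 18.7% ± 0.643 in siLuc (SD, n = 3 each), and 12.9% ± 0.345 in Gal4-Panx-IDR, against 17.7% ± 0.397 in Gal4 (SD, n = 2 each). The share was lower in both treated groups. In the last 250 nt alone, however, the siArmi and siLuc libraries of Doc overlapped, at 6.43% ± 0.870 in siArmi and 7.13% ± 0.406 in siLuc (SD, n = 3 each, exact permutation p = 0.3). For F-element it was 4.27% in siArmi and 4.92% in siLuc, and 7.12% in Gal4-Panx-IDR and 5.63% in Gal4, lower after Armitage depletion and higher after flamenco silencing. Over part 10, each of these differences of Doc and F-element separated the libraries and had the smallest exact permutation p that its design allows, 0.1 or 0.33. Such separation was not counted over other elements, so it does not set the members apart. The share of BS varied too much between libraries, with 10.2% ± 13.4 in siArmi and 19.0% ± 0.247 in siLuc, and 11.2% ± 1.74 in Gal4-Panx-IDR and 18.4% ± 6.81 in Gal4.

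The antisense changes of both treatments, which have controls of their own, were compared in 1 fit over all 10 libraries. The change on flamenco silencing minus that on Armitage depletion was 3.79 for Doc (SE 0.291, limma, adjusted p = 1.43e-30) and 3.31 for F-element (SE 0.292, adjusted p = 9.29e-25). It was positive for 100% of the 50 elements tested, with a median of 3.28. Scaled to total transposon signal the split over 60 elements was 29 lower and 19 higher, with Doc at 0.16 (adjusted p = 0.154) and F-element at -0.34 (adjusted p = 0.00252), the opposite sign. The 3′ adaptor of the tethering libraries also differed from that of the siRNA libraries, in that it carried no barcode and fewer random nucleotides.

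Sense piRNAs were sparse in most other LINEs. Of 30 other LINEs, 20 of the jockey clade and 10 of other clades, antisense coverage reached a mean of 10 in siLuc cells for 14 and sense coverage for 2, Juan with 36.3 and Cr1a with 149.1. In siLuc, Doc, F-element and BS held 38.0% of the antisense and 60.5% of the sense signal of the members and these 30 LINEs together. Their part of the signal of all elements was 2.02% and 5.00%. Fw2 and Fw3 were outside this list. Among the members and these LINEs, Helena had the most antisense coverage, at 1494. Of the 14 other LINEs tested for their strand balance, 13 had more antisense coverage, led by Helena at 9.33 on the log2 scale and G6 at 8.87, and Cr1a, at -2.86, had more sense coverage as BS did. Over all 79 elements tested 67.1% had more antisense and 31.6% more sense coverage.

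**Figure D5:**
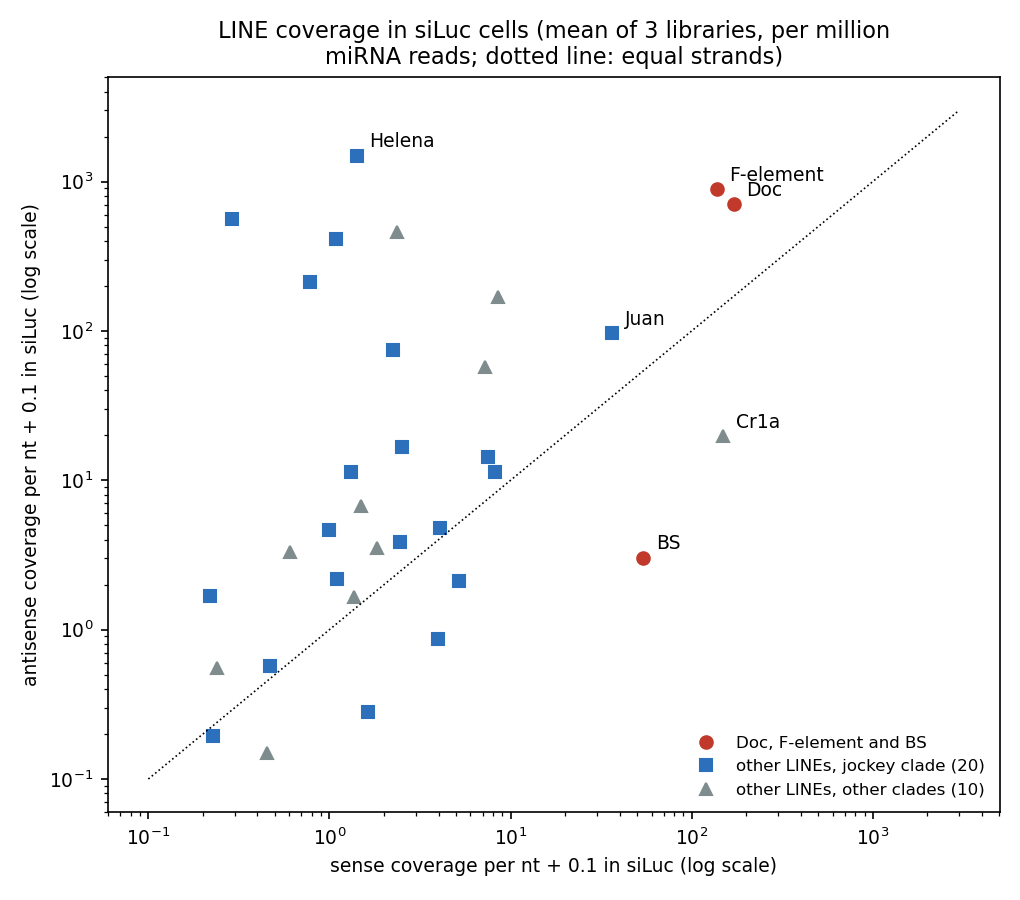
Antisense against sense coverage per nt (plus 0.1, log axes) of Doc, F-element and BS and of 30 other LINEs in siLuc, as the mean of 3 libraries per 1000000 miRNA reads; the dotted line marks equal strands. Doc and F-element lie at the upper right, with more than 100 per nt on both strands, and BS lies below the line beside Cr1a.

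After Armitage depletion all 10 other LINEs tested fell on the antisense strand, as did 100% of the 50 elements tested. The median of these LINEs was -4.27 beside the -4.30 of all elements, and baggins (-4.71) and I-element_new (-4.64) fell most. Both that could be tested for sense coverage fell, Cr1a by -4.31 and Juan by -3.94. Their sense means in siArmi, 6.52 and 1.42, were below 10, so both entered the test through siLuc. After flamenco silencing, 7 of 16 fell on the antisense strand, led by G6 (-2.00) and G2 (-1.87), 1 rose (G5, 0.79) and 8 were not called, with a median of -0.34 beside the -0.57 of all elements. Over all 73 elements tested 53.4% fell and 8.22% rose. On the sense strand 1 of 5 fell (G4, -0.97), 3 rose, led by I-element_new (0.77) and Juan (0.70), and 1 was not called, with a median of 0.46 beside the -0.25 of all elements. Over all 54 elements tested 35.2% fell and 25.9% rose. The other LINEs were not tested against the members.

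The elements whose coverage varied most like that of each member over the 10 libraries, each centred within its experiment, were Stalker, Stalker2 and 297 for Doc antisense and blood, gypsy5 and gypsy2_new for F-element antisense. On the sense strand they were hobo, roo and F-element for Doc, Stalker, Repbase_DNAREP1 and gypsy6_new for F-element, and diver2, gypsy3_new and Copia1 for BS. Pearson's r was above 0.99 for each, but its median over all elements was 0.990 and 0.990 for Doc and F-element antisense and 0.985, 0.989 and 0.945 for Doc, F-element and BS sense, since the points share the loss of nearly all elements in the 3 siArmi libraries.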

How the data were processed

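Argonaute-bound small RNAs of OSCs were sequenced in 10 libraries. The authors removed adaptors with cutadapt, kept reads of 24 to 35 nt, aligned them with Bowtie to RepBase-based consensus sequences, dropped reads that matched more than 1 consensus (which lowers the coverage of related LINEs), weighted a read at 2 places of a consensus by 0.5, and deposited coverage per position and strand, a signal scaled to 1000000 miRNA reads. The sign of the antisense coverage, which was deposited below 0, was dropped. The tool versions behind these alignments are not given in the sources used here.

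Mean coverage per nt was compared with limma 3.58.1 (R 4.3.3) on log2(coverage + 1), with a trend, over all elements or parts whose mean reached 10, with Benjamini-Hochberg adjustment at a threshold of 0.05. That mean was taken over the libraries compared, so a group with high values could carry an element past it. No count model was used, since coverage is not a count. The fits were tested on simulated data. Strand and 3′ end shares were compared by exact permutation tests, for the members alone. Other steps used scipy 1.17.1, pandas 2.3.3, numpy 2.4.6 and matplotlib 3.10.9 under Python 3.11.15.

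Members, lists, the rule for named parts (most coverage, 3′ end, largest changes in each direction) and the alternatives were chosen with earlier results of these data known, and steps and stretches after seeing the siLuc values. Other parts that the text names were chosen after their values were seen. The consensus sequences were not used here, so none is printed. Precision is limited by depth, which is lowest in the tethering libraries.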

Additional observations from a re-analysis of the deposited data

How the results depend on the processing

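Of 268 values of whole members under all alternatives, 248 kept their direction and side of the threshold, 14 lost their call and 6 reversed; of 339 values of parts, 289 kept both, 37 lost and 6 gained a call and 7 reversed. Unless a cause is given, the cause was not tested. Without a filter more elements were tested, and calls numbered 120 (antisense, siArmi), 119 (sense, siArmi), 109 (strand balance change, siArmi) and 115 (difference between treatments). Scaling to total transposon signal gave 31 antisense and 19 sense calls and 230 antisense and 137 sense parts for siArmi. Median-ratio scaling gave 27 and 12. These calls include both lower and higher values, unlike the whole-element calls under miRNA scaling, which were all lower. With the median over positions, calls after flamenco silencing were 25 antisense, 12 sense and 22 of the strand balance. With 20 parts, which are more features, calls were 902 and 439 (siArmi, antisense and sense) and 684 and 338 (Gal4-Panx-IDR). A mean of at least 50 left 90 sense parts (siArmi), and gave 92 parts that differed from the others after flamenco silencing. A pseudocount of 10 gave 289 such parts for siArmi and 65 for Gal4-Panx-IDR.

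For the members, scaling to total transposon signal gave 0.012 (F-element sense, siArmi), -0.11 (BS sense, siArmi), -0.096 (F-element sense, Gal4-Panx-IDR), 0.16 (Doc difference between treatments), -0.34 (F-element difference), 0.04 (F-element part 4 sense, siArmi), 0.39 (BS part 10 antisense, Gal4-Panx-IDR) and 0.40 (F-element part 10 sense, Gal4-Panx-IDR). Median-ratio scaling gave -0.093 (F-element sense, siArmi), 0.12 (Doc difference) and -0.38 (F-element difference). The median over positions gave 0 for BS sense in both treatments, -0.25 (Doc antisense) and -0.23 (F-element sense) after flamenco silencing, 1.60 for the BS strand balance in siLuc and -1.60 for its change in siArmi, which was 0.49 with a pseudocount of 0.1. A pseudocount of 10 turned F-element part 2 to -0.054 and part 10 to 0.19 relative to the other parts (siArmi). The 3′ end share of Doc antisense changed by -0.694 points (siArmi, last 250 nt, where the libraries overlapped), -2.03 and -5.39 points (Gal4-Panx-IDR, last 250 and 500 nt), and that of F-element by 0.568 points (Gal4-Panx-IDR, last 250 nt), over windows that differ in length.

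With each library left out in turn, parts called relative to the others ranged between 72 and 226 for siArmi and were 0 each time for Gal4-Panx-IDR (118 to 143 at an unadjusted p under 0.05 by limma). After flamenco silencing F-element sense ranged between -0.84 and -0.69, its strand balance between -0.83 and -0.57, the strand balance of Doc between -0.0039 and 0.295, and BS part 10 antisense between -0.68 and 0.22.

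In the labels, siArmi and siLuc libraries share only a replicate number. Deviations of same-numbered libraries correlated at -0.083, 0.021 and 0.232 (antisense, over 50 elements) and at 0.124, -0.391 and 0.271 (sense, over 29 elements). Replicate 3 of siArmi correlated best with its own number on both strands, and replicates 1 and 2 on neither. With 3 libraries per group these correlations cannot decide whether the libraries were paired. With the replicate block, 102 instead of 158 parts differed from the others of their element, among the members F-element part 6 lost its call (adjusted p = 0.0733, limma), and the 50 antisense and 29 sense calls were all kept in number. No paired analysis was possible for the tethering libraries because the Gal4-Panx-IDR labels carry days and no replicate numbers. Depth limits BS antisense most, with at least 4 reads in the smallest library.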
